A study of Mus musculus with 16 samples.

Results

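The 10 transcription factors and repressors of the circadian clock were followed in brain endothelial cells carrying human *APOE3* or *APOE4*. They were chosen by name, as the core clock and output factors other than the Rev-Erb and Period genes, and are Arntl, Clock, Npas2, Cry1, Cry2, Ciart, Bhlhe41, Dbp, Tef and Nfil3. All 10 were found among the 39057 gene identifiers of the count table, and all 10 passed the filter on low counts that left 12481 genes to test. RNA was sequenced from 16 untreated cultures of primary cortical brain endothelial cells, 8 *APOE3* and 8 *APOE4*, with 4 male and 4 female cultures per genotype. In the paper, n stands for single animals or for separate isolations of pooled animals, depending on the assay. Both groups came from targeted replacement mice, whose endogenous Apoe promoter drives the human gene. The donors were 21 to 28 days old according to the labels, and both genotypes went through the same puromycin selection, which other brain cells survive less well than endothelial cells. The general timeline in the methods text had a medium change some days before experiments, but no hour of harvest was given there or in the labels. A single time point was measured for each culture, so neither rhythm nor phase can be read from it.

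The clock of mammalian cells is a transcriptional loop. ARNTL (also called BMAL1) pairs with CLOCK or NPAS2, binds E-box elements in DNA and drives the Period, Cryptochrome, Rev-Erb and Dbp genes, and the Period and Cryptochrome proteins then repress that pair. Rev-Erb proteins repress Arntl and Nfil3 through a response element at which ROR proteins activate. DBP and TEF activate, and NFIL3 represses, genes that carry a D-box element, and this layer carries the rhythm on to many output genes.

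The promoters of several of the factors hold plain letter matches to E-box and Rev-Erb elements. Each 30-base stretch below comes from a RefSeq promoter window in GRCm38.p6 (250 bases before to 50 bases after a transcription start), is written 5′ to 3′ on the gene's strand, and is shown for its match to an element described above. Capitals mark the E-box CACGTG in Tef, Bhlhe41, Ciart and Cry1, and TAGGTCA or its reverse complement, the half-site read by Rev-Erb and ROR proteins, in Arntl and Nfil3.

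Tef, first start: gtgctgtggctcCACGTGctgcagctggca
Tef, second start: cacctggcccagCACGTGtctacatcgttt
Bhlhe41: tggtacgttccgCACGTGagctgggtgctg
Ciart: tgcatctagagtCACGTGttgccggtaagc
Ciart, nearest its start: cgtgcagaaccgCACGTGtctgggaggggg
Cry1: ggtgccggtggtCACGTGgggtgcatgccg
Arntl: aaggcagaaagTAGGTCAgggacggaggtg
Nfil3: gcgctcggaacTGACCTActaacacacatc

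The Tef stretches lie at chr15:81802534-81802563 and chr15:81811264-81811293 on the plus strand, with the E-box 127 and 138 bases before the respective start. Bhlhe41 has its E-box 153 bases before the start (chr6:145865556-145865585, minus strand). Ciart holds 3 in a single window, of which those 116 and 44 bases before the start are printed (chr3:95882327-95882356 and chr3:95882255-95882284, minus strand). In Cry1 it lies 60 bases before the start (chr10:85185097-85185126, minus strand). The half-site of Arntl begins 30 bases after its second listed start (chr7:113207530-113207559, plus strand), and that of Nfil3 12 bases before its start and on the opposite strand (chr13:52981033-52981062, minus strand). Of the 14 windows that matched the 10 genes, 5 held CACGTG, against 7.15% of all 32851 windows, and 2 held TAGGTCA on either strand, against 2.61%. The 5 windows belong to 4 genes, and Dbp is not among these. Of 9 other clock loop genes with windows, 2 (Cipc and Per1) held CACGTG and 0 held TAGGTCA. The D-box letters TTATGTAA and TTACGTAA were in 0 of the 14 windows and in 0.938% and 0.119% of all windows. These counts describe letters in the windows, and no binding was measured.

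The cultures showed the profile of brain endothelial cells. Summed over 16 markers (Cldn5, Pecam1, Cdh5 and others, all above 3 counts), they held 17659 to 18985 CPM (counts relative to the TMM-normalized library size) in *APOE3* and 17742 to 19563 in *APOE4* libraries. Total counts on genes ran from 12717847 to 18624417 per library. Markers of pericytes and smooth muscle summed to 187.5 to 354.2 CPM in *APOE3* and 222.7 to 340.2 in *APOE4* libraries, those of fibroblasts to 13.3 to 65.3 and 10.4 to 85.2, and those of astrocytes, microglia and oligodendrocytes to below 8 in every library. Among the markers at or under 3 counts in all libraries were Aqp4, Cx3cr1 and Mog. Of the 7 marker lists, 1 moved with genotype in its sum: the 6 neuron markers summed to 8.64 to 12.3 CPM in *APOE3* and 10.6 to 15.0 in *APOE4* libraries (exact permutation test, two-sided, p = 0.0048, adjusted over the 7 lists 0.0337), with Snap25 at or under 3 counts. Gene by gene, 2 of these 6 were tested and 0 passed (edgeR, lowest adjusted p = 0.132). Of the pericyte and smooth muscle markers 7 were tested and 0 passed, with 6 log2 fold changes above and 1 below 0 (median 0.25). The part of other cell types in the values below was not tested.

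All 10 factors were transcribed, at levels spread around that of a typical gene. Per kilobase of exon, Tef stood highest, with 16.1 ± 3.84 CPM per kb (SD, n = 16), and Clock (6.72 ± 0.284), Arntl (5.91 ± 0.280) and Nfil3 (5.67 ± 0.807) followed. Dbp (4.88 ± 1.49) and Cry1 (4.78 ± 0.654) came next, then Cry2 (2.93 ± 0.288), Npas2 (2.50 ± 0.279), Bhlhe41 (1.82 ± 0.507) and Ciart (1.44 ± 0.347). The median tested gene had 5.91 CPM per kb. Among neighbours in this order, Arntl and Nfil3, Nfil3 and Dbp, Dbp and Cry1, and Bhlhe41 and Ciart lay within 1 SD of each other, so no order is claimed inside these pairs. The order pools the genotypes, and the places of Dbp, Bhlhe41 and Ciart depended on genotype. In *APOE3* cultures Dbp had 5.81 CPM per kb, Nfil3 5.40 and Cry1 4.87. In *APOE4* cultures they had 3.95, 5.94 and 4.69. Bhlhe41 and Ciart had 1.48 and 1.66 CPM per kb in *APOE3* and 2.16 and 1.23 in *APOE4* cultures. The spread over the libraries also differed between the factors. The coefficient of variation over the 16 cultures was 4.22% for Clock and 4.73% for Arntl. It was 9.85% to 14.2% for Cry2, Npas2, Cry1 and Nfil3, and 23.8% for Tef, 24.0% for Ciart, 27.8% for Bhlhe41 and 30.4% for Dbp. These values pool the genotypes, so a genotype difference adds to them. Within *APOE3* and *APOE4* cultures the coefficient was 17.3% and 12.5% for Tef and 24.2% and 22.4% for Dbp. For Bhlhe41 it was 28.7% and 15.2%, and for Ciart 13.99% and 25.8%. Cry1 had 9.11% and 17.9% and Nfil3 14.2% and 13.5%, so Tef exceeded these only in *APOE3* cultures. Clock (3.097% and 5.34%) and Arntl (3.16% and 5.77%) were lowest of the 10 in each genotype. Counting itself adds more relative spread where counts are low. Counts per library ran from 1236 to 1648 for Clock, 611 to 837 for Arntl and 30 to 67 for Ciart. The coefficients were not corrected for this, so spread from counting and spread between cultures cannot be told apart.

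**Figure D1:**
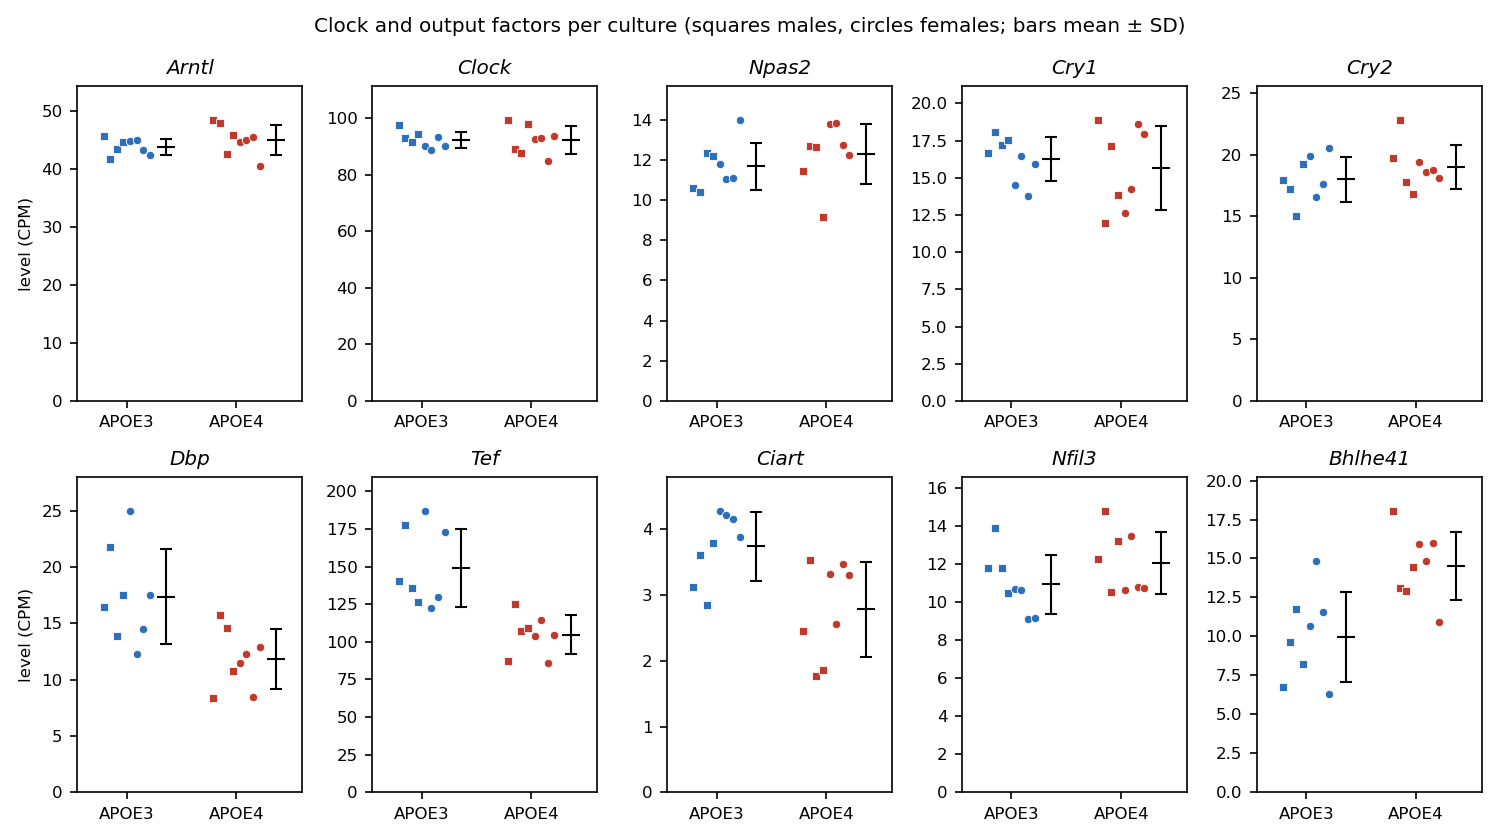
Level of each of the 10 factors in each culture, in CPM on axes that start at 0, with males as squares, females as circles and bars for the mean ± SD of 8 cultures. Clock and Arntl lie in a narrow band in both genotypes, all *APOE4* cultures lie under the *APOE3* median for Dbp, Tef and Ciart, and all lie above it for Bhlhe41.

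Between genotypes, 3 of the 10 factors passed the test, against 12.8% of all 12481 genes tested (6.71% higher and 6.09% lower). Both D-box activators of the set fell in *APOE4* brain endothelial cells, Dbp by 32.0% and Tef by 29.7%, and the E-box repressor Bhlhe41 rose by 45.7%. The activators of the loop and the Cryptochromes did not pass. The median log2 fold change of the 10 factors was 0.02, and that of all tested genes was -0.00022. Every test here is edgeR's quasi-likelihood test of *APOE4* against *APOE3* with Benjamini-Hochberg adjustment over all genes tested and a threshold of 0.05, and n is 8 cultures per genotype. Because the RNA is from whole cultures, fewer cells expressing a gene and less of its RNA per cell cannot be told apart. The library numbers of all *APOE3* cultures come before those of all *APOE4* cultures, and no hour of harvest is given. A difference in handling order or hour between the groups therefore cannot be told apart from genotype.

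Dbp (ENSMUSG00000059824.12, GRCm38 chromosome 7 from 45705088 to 45710203) is the D-box activator with the widest spread over all 16 cultures, genotypes pooled. It ran from 12.3 to 25.0 CPM in *APOE3* cultures with a median of 17.0. In *APOE4* cultures it ran from 8.34 to 15.8 CPM with a median of 11.9. All 8 *APOE4* cultures lay below the *APOE3* median and 5 lay below every *APOE3* culture, so the groups overlapped in part. Mean levels were 17.4 ± 4.20 and 11.8 ± 2.65 CPM (SD), and the log2 fold change was -0.56 (SE 0.145, 95% interval -0.86 to -0.25, adjusted p = 0.0186). Sphk2, on the opposite strand, shares 539 exonic bases with Dbp, or 18.0% of its exon length. The library kit selected a strand but the counting setting is not given in the sources used here, so reads of the shared stretch cannot be told apart. Sphk2, a sphingosine kinase, was at 64.0 ± 4.54 CPM in *APOE3* and at 57.4 ± 2.25 in *APOE4* cultures, a fold change of -0.16 on the log2 scale (SE 0.0421, adjusted p = 0.0214). Tef and Cry2 share 193 and 295 exonic bases with opposite-strand genes, Gm17597 and D930015M05Rik, that had at most 5 and 8 counts in a library, and Arntl shares 33 with Gm45355.

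Tef, the related D-box activator and the most abundant of the 10 per kilobase (ENSMUSG00000022389.14, chromosome 15 from 81802421 to 81826863), ran from 122.6 to 186.7 CPM in *APOE3* cultures with a median of 138.0. It ran from 86.2 to 125.4 CPM with a median of 105.9 in *APOE4* cultures. Of the 8 *APOE4* cultures, 7 lay below every *APOE3* culture. Mean levels were 149.0 ± 25.8 and 104.8 ± 13.1 CPM, and the log2 fold change was -0.51 (SE 0.0928, 95% interval -0.70 to -0.31, adjusted p = 0.00574). The E-box letters shown above for Tef are also in Bhlhe41, Ciart and Cry1, and whether they relate to the genotype difference was not tested.

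Nfil3, the repressor at D-box elements, pointed the other way without passing the test. It ran from 9.11 to 13.9 CPM in *APOE3* and from 10.5 to 14.8 in *APOE4* cultures, with means of 10.9 ± 1.55 and 12.0 ± 1.62 (log2 fold change 0.13, SE 0.0944, 95% interval -0.06 to 0.33, adjusted p = 0.368). The interval ended short of a rise as large as the estimated fall of Dbp or Tef.

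Bhlhe41 (DEC2), a repressor that binds E-box elements (ENSMUSG00000030256.11, chromosome 6 from 145858243 to 145865558), ran from 6.30 to 14.9 CPM in *APOE3* cultures with a median of 10.2. In *APOE4* cultures it ran from 10.9 to 18.0 CPM with a median of 14.7. All 8 *APOE4* cultures lay above the *APOE3* median, and 3 lay above every *APOE3* culture. Mean levels were 9.97 ± 2.86 and 14.5 ± 2.21 CPM, and the log2 fold change was 0.54 (SE 0.144, 95% interval 0.24 to 0.84, adjusted p = 0.0201). Gm43909 shares 1280 exonic bases with it on the opposite strand in GENCODE release 21 and is not analysed here, so the same limit of strand holds. Its close relative Bhlhe40 (DEC1), which also represses at E-boxes, was at 53.1 ± 8.48 CPM in *APOE3* and 48.3 ± 9.06 in *APOE4* cultures, and its log2 fold change was -0.14 (SE 0.107, adjusted p = 0.424). Whether the relatives differ in their response was not tested.

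Ciart (CHRONO), a repressor of the ARNTL and CLOCK pair, had the lowest CPM of the 10, with 30 to 67 counts per library. It ran from 2.85 to 4.28 CPM in *APOE3* cultures with a median of 3.84, and from 1.78 to 3.53 in *APOE4* cultures with a median of 2.94. All 8 *APOE4* cultures lay under the *APOE3* median, and 4 lay under every *APOE3* culture. The means were 3.74 ± 0.524 and 2.79 ± 0.720 CPM (log2 fold change -0.42, SE 0.152, 95% interval -0.74 to -0.11), and the test missed the threshold (adjusted p = 0.0704). With sex as a covariate it passed (adjusted p = 0.0411), and across the 9 alternatives that kept all libraries its adjusted p ran from 0.0405 to 0.763, so its call depended on the fit.

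The Cryptochromes, light-independent repressors in mammals that act on ARNTL and CLOCK, did not pass the test. Cry1 had 16.3 ± 1.48 CPM in *APOE3* and 15.7 ± 2.80 in *APOE4* cultures (log2 fold change -0.06, SE 0.0953, 95% interval -0.26 to 0.14, adjusted p = 0.741). Cry2 had 18.0 ± 1.82 and 19.0 ± 1.79 CPM (log2 fold change 0.08, SE 0.0698, 95% interval -0.07 to 0.22, adjusted p = 0.501). Both ranges overlapped over most of their length, from 13.8 to 18.1 against 12.0 to 18.9 CPM for Cry1 and from 15.0 to 20.5 against 16.8 to 22.8 for Cry2.

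The activators of the loop stood at nearly the same level in both genotypes. Arntl, the partner shared by both dimers, had 41.7 to 45.7 CPM in *APOE3* and 40.6 to 48.5 in *APOE4* cultures, with a log2 fold change of 0.04 (SE 0.0387, 95% interval -0.04 to 0.12, adjusted p = 0.562). Clock had 92.3 ± 2.86 and 92.3 ± 4.93 CPM, with a log2 fold change of -0.00065 (SE 0.0340, 95% interval -0.07 to 0.07, adjusted p = 0.993). Npas2, which can take the place of CLOCK, had 11.7 ± 1.17 and 12.3 ± 1.49 CPM (log2 fold change 0.08, SE 0.0825, 95% interval -0.10 to 0.25, adjusted p = 0.586). For Arntl and Clock the interval leaves out a difference of the size seen in Dbp, Tef or Bhlhe41. The size of the log2 fold change exceeded that of 97.1% of tested genes for Dbp, 96.8% for Bhlhe41 and 96.2% for Tef, and that of 23.8% for Arntl and 0.465% for Clock.

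The rest of the clock gave the setting for these values. Of 12 further loop genes, 11 were tested, and 6 fell and 0 rose, with a list median of -0.18 on the log2 scale. Of all genes tested, 6.09% were lower and 6.71% higher. The Rev-Erb repressors Nr1d1 (-0.53, SE 0.136, adjusted p = 0.0180) and Nr1d2 (-0.53, SE 0.106, adjusted p = 0.00685) both fell on the log2 scale. So did the Period genes, Per1 by 0.24 (SE 0.0479, adjusted p = 0.00687), Per2 by 0.25 (SE 0.0696, adjusted p = 0.0266) and Per3 by 0.44 (SE 0.0910, adjusted p = 0.00802). Per1 ran from 239.5 to 299.0 CPM in *APOE3* and from 213.5 to 232.5 in *APOE4* cultures and did not overlap, which 0.625% of tested genes shared. Cipc, an inhibitor of CLOCK, fell by 0.18 (SE 0.0503, adjusted p = 0.0239).

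The tested loop genes that did not pass included Bhlhe40, Rora (log2 fold change -0.04), Hlf (-0.03) and Arntl2 (0.05). Hlf is the remaining D-box activator of its family, and ran from 9.59 to 18.8 CPM in *APOE3* and from 11.9 to 17.3 in *APOE4* cultures (SE 0.113, adjusted p = 0.909). Rorb had at most 4 counts and was not tested. Among 14 tested kinases, ligases and other regulators of clock proteins, 1 fell and 1 rose (median -0.02), near the 12.8% of all genes that passed. The deacetylase Sirt1 fell by 0.22 (SE 0.0708, adjusted p = 0.0487) and Timeless, which also acts at replication forks, rose by 0.20 (SE 0.0638, adjusted p = 0.0440). Among 10 tested output genes, 2 fell and 0 rose (median -0.07), against 6.09% of all genes lower and 6.71% higher. These were Tsc22d3 (-0.31, SE 0.0795, adjusted p = 0.0169) and Klf9 (-0.21, SE 0.0581, adjusted p = 0.0251), which glucocorticoids also induce.

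**Figure D2:**
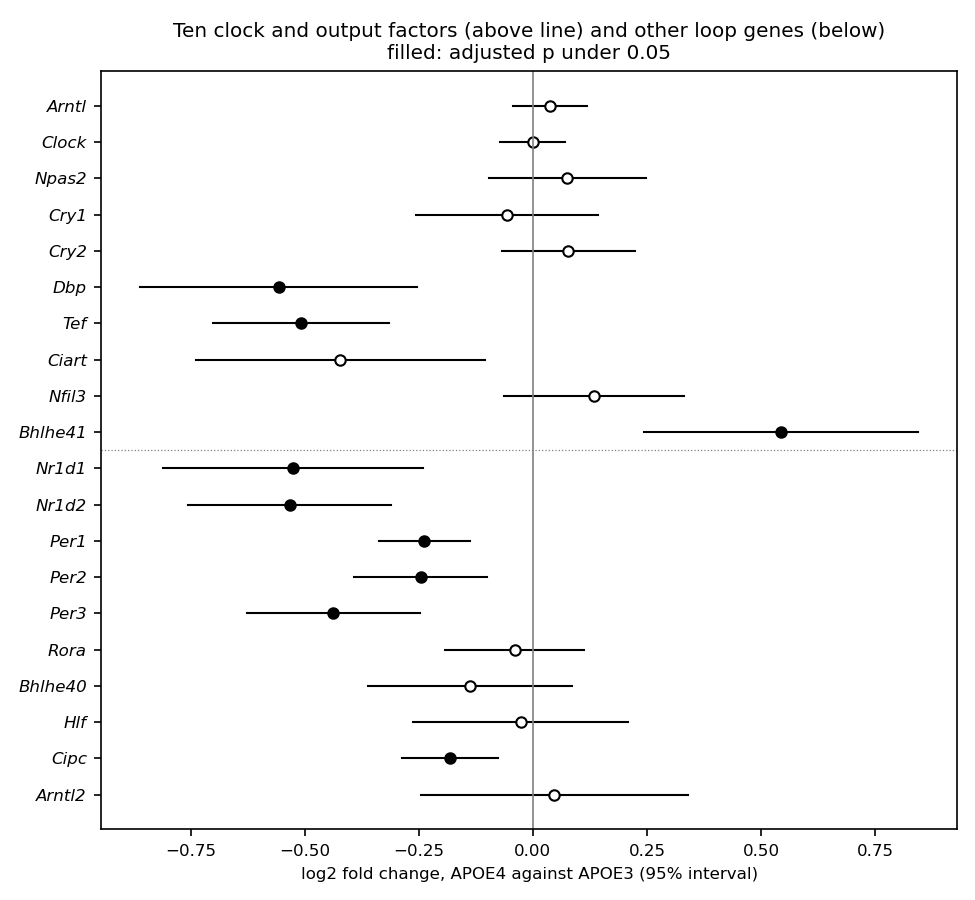
Log2 fold change of *APOE4* against *APOE3* with its 95% interval for the 10 factors, above the dotted line, and 10 other loop genes, below it; filled points have an adjusted p under 0.05 (edgeR, n = 8 per genotype). Dbp, Tef, Nr1d1 and Nr1d2 lie near -0.5, Bhlhe41 near 0.5, and the intervals of Arntl and Clock are narrow and cross 0.

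Both sexes showed the same signs for the factors that passed. The sexes are parts of the same 16 libraries in which these factors passed, so the shared sign is no separate support. In males the log2 fold change was -0.49 for Dbp, -0.43 for Tef and 0.68 for Bhlhe41, and in females -0.63, -0.58 and 0.41 (4 cultures against 4). For Ciart it was -0.49 in males and -0.38 in females. Within a single sex edgeR called 0 of 12481 genes, with unadjusted p-values under 0.05 for 4 of the 10 factors in males (Dbp, Tef, Ciart and Bhlhe41), against 14.2% of all genes, and for 2 in females (Dbp and Tef), against 19.5%. The share in females is close to that of all genes. The genotype difference differed between the sexes for 0 of the 10 factors (edgeR interaction term, adjusted p = 0.9999 for each, unadjusted 0 of 10, limma's voom 0), and for 0% of all genes, of which 345 (2.76%) had an unadjusted p under 0.05. The intervals of that difference were wide, from -0.78 to 0.49 for Dbp and from -0.88 to 0.35 for Bhlhe41.

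Between females and males, averaged over genotypes, 0 of the 10 factors passed in edgeR or limma's voom, against 0.0721% of all genes. At an unadjusted p under 0.05 there were 2, against 4.26% of all genes. Ciart had a log2 difference of 0.36, higher in females (SE 0.137, unadjusted p = 0.0169, adjusted 0.9999), with 4.14 ± 0.174 CPM in female and 3.35 ± 0.438 in male *APOE3* cultures and 3.17 ± 0.411 and 2.41 ± 0.809 in *APOE4* cultures (n = 4 each). Nfil3 had -0.21, lower in females (SE 0.0848, unadjusted p = 0.0210, adjusted 0.9999).

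**Figure D3:**
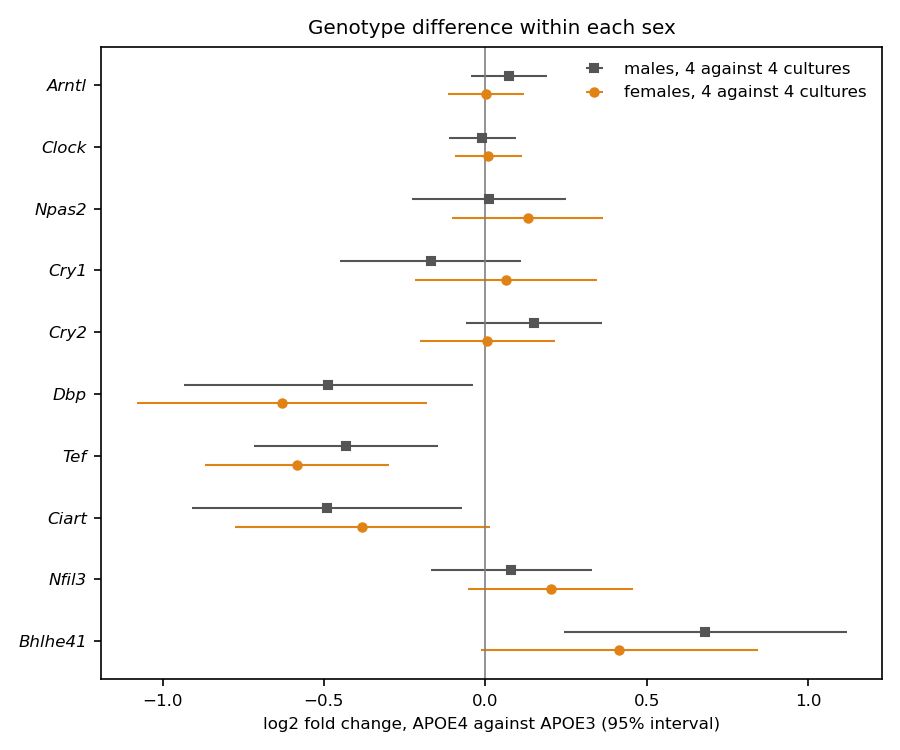
Log2 fold change of *APOE4* against *APOE3* within males (squares) and within females (circles) for each of the 10 factors, with 95% intervals from a fit of 4 groups of 4 cultures. The values of Dbp, Tef and Ciart are below 0 and those of Bhlhe41 above 0 in both sexes, and the intervals of the sexes overlap for every factor.

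Cultures of the same genotype also differed, which allowed the factors to be compared with each other apart from the genotype difference. With each gene's genotype mean removed from its log2 CPM, 1 of the 45 pairs of factors varied together past the threshold. Dbp and Tef had a Pearson r of 0.86 (permutation test within genotype, two-sided, n = 16, p = 7e-05, adjusted over 45 pairs 0.0032) and a Spearman rho of 0.86 (p = 9e-05, adjusted 0.004). Without the 2 cultures farthest from the Dbp median r was 0.80. It was 0.85 within the 8 *APOE3* and 0.89 within the 8 *APOE4* cultures (exact permutation tests, p = 0.00652 and 0.00613, adjusted 0.294 and 0.276). The highest Dbp in each genotype came with the highest Tef, at 25.0 and 186.7 CPM in *APOE3* and at 15.8 and 125.4 CPM in *APOE4* cultures. Over all 45 pairs the median r was -0.05, and the lowest was -0.51, between Clock and Npas2.

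Among all 12480 other genes, the ones whose centred levels followed Dbp most closely were Doc2b (r = 0.95), Akna (0.94), Ep300, Kmt5b and Fbxl20 (0.90 each), and those that ran most opposite were Smc2 (-0.95), Rbl1 (-0.94), Ttf2 (-0.93), Jpt2 and Cep128 (-0.91 each). Smc2 is a subunit of condensin, which compacts chromosomes at mitosis, and Rbl1 is a pocket protein of the cell cycle. Nr1d1 was in place 28 from the top (r = 0.86) and Tef in place 29. For Arntl the closest were Pxdc1 (0.82), Nsmce4a (0.80), Cdipt and Plekhf1 (0.79 each) and Psmd8 (0.78), and the most opposite were Mterf4 (-0.86), Sart1 (-0.84), Celf1 (-0.83), Mlh3 (-0.81) and Ret (-0.80). These r values are extremes of many, over 16 libraries that share their depth and normalization, and are given as a description.

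A score of 40 cell cycle genes, the mean of their log2 CPM, moved with genotype and with several of the factors. It was 5.41 ± 0.372 in *APOE3* and 6.03 ± 0.284 in *APOE4* cultures (exact permutation test, two-sided, n = 8 per genotype, p = 0.0023). Of the 40 genes 37 rose and 0 fell, against 6.71% of all genes higher and 6.09% lower, and their median log2 fold change was 0.64. The list was chosen with earlier results of these data known, which limits the reading of this p-value. The score is a measure of RNA, and cell division was not measured here. In the paper, few nuclei took up the DNA label BrdU at confluence, and neither their share nor cell density differed between genotypes. With genotype means removed, Dbp had an r of -0.84 with the score (permutation test, n = 16, p = 0.00015, adjusted over 10 factors 0.00145, rho -0.87, p = 7e-05, adjusted 0.0007), Tef -0.81 (p = 0.00029, adjusted 0.00145, rho -0.80, p = 0.00057, adjusted 0.00285) and Bhlhe41 0.71 (p = 0.00448, adjusted 0.0149, rho 0.69, p = 0.00604, adjusted 0.0201). Without the 2 farthest cultures r was -0.76, -0.75 and 0.54. Within *APOE3* and within *APOE4* cultures it was -0.80 and -0.91 for Dbp, -0.80 and -0.84 for Tef and 0.66 and 0.87 for Bhlhe41, and the exact permutation p of Bhlhe41 in *APOE3* cultures was 0.0733. The other 7 factors did not pass (adjusted p from 0.0837 for Cry2, with r = -0.56, to 0.842 for Nfil3), and Ciart had an r of -0.16. This relation was computed after the data had been seen.

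With the score as a covariate the genotype difference of Dbp was -0.03 (SE 0.124, adjusted p = 0.980), of Bhlhe41 0.12 (SE 0.146, adjusted p = 0.880), of Tef -0.17 (SE 0.0774, adjusted p = 0.669) and of Ciart -0.33 (SE 0.213, adjusted p = 0.763). That fit called 0 of the 10 factors and 0% of all genes in edgeR. In edgeR's test, 2 of the factors had an unadjusted p under 0.05, namely Tef (0.0355) and Cry2 (0.0185, log2 fold change 0.23, SE 0.0892), as did 895 (7.17%) of all genes. The score differs between the genotypes, so its part and that of genotype are only partly separable in these cultures.

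**Figure D4:**
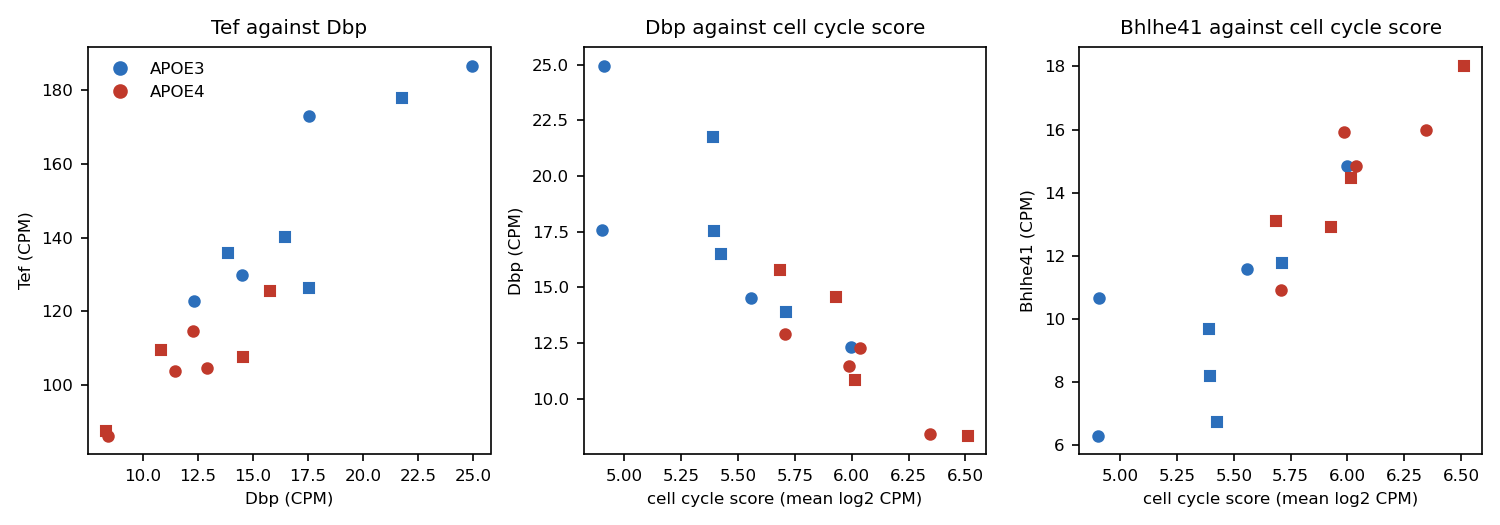
Each point is 1 culture (blue *APOE3*, red *APOE4*, squares males, circles females): Tef against Dbp in CPM on the left, and Dbp and Bhlhe41 in CPM against the cell cycle score (mean log2 CPM of 40 genes) in the middle and on the right. Tef rises with Dbp in both genotypes, Dbp is lower and Bhlhe41 higher in cultures with a higher score, and the axes do not start at 0.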

How the data were processed

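The authors deposited raw read counts per gene for 16 libraries. Genotype and culture number were taken from the sample labels, and 0 columns were left unmapped. Per the submitters' processing notes reads were handled with STAR and featureCounts on mm10 and hg38. Annotation release and strand setting are not given in the sources used here. Of 39056 mouse identifiers, 38872 matched GENCODE release 21 (GRCm38), which gave symbols, positions and exon lengths, and all 10 factors matched the RefSeq promoter table. The factors and gene lists were chosen with earlier results of these data known.

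Counts were filtered with filterByExpr by genotype, TMM-normalized and tested with edgeR 4.0.16 (quasi-likelihood F test, genotype alone, Benjamini-Hochberg over 12481 genes, threshold 0.05) in R 4.3.3. SE is the absolute log2 fold change divided by the square root of F. Sex effects came from a fit of 4 groups. CPM used the normalized library size and log2 CPM a prior count of 2. Correlations used 100000 shuffles within genotype, or all orders of 8 cultures. Genes named outside the 10 were the tested loop genes, of which 1 is not reported here, the regulators and outputs that passed, and the 5 genes with the highest and the 5 with the lowest r for Dbp and Arntl.

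Alternatives were DESeq2 1.42.0 (size factors, Wald test), limma 3.58.1 (voom with sample quality weights), no filter, at least 10 counts in every library, sex, the cell cycle score or 1 surrogate variable (sva 3.50.0) as covariate, GC and length offsets, and each library left out. The fits were run on simulated counts in which 200 genes changed by 1 on the log2 scale. They recovered 192 for genotype, 161 for the interaction and 188 for sex, with 13, 11 and 13 other genes called. Changes as small as those of the factors were not simulated. Counts from PCR without molecular identifiers are not independent molecules. No batch is named in the labels, and the library numbers run through all *APOE3* before all *APOE4* cultures.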

Additional observations from a re-analysis of the deposited data

How the results depend on the processing

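No paired analysis was possible because the culture numbers are not shared between the genotypes. Dbp, Tef and Bhlhe41 passed the threshold in all 16 fits that each left out 1 library (adjusted p from 0.0065 to 0.0455, 0.0016 to 0.0163 and 0.0035 to 0.0460) and in 8 of the 9 other alternatives. The exception was the cell cycle score as a covariate, with which 0 of the factors and 0 of the 35 other clock genes tested passed. That fit called 0 of all 12481 genes, so these counts are not particular to clock genes. Arntl then stood at -0.0048. Leaving out 1 library gave 3 to 4 factors past the threshold, the fourth being Ciart, which passed without *APOE3* replicate 27 (adjusted p = 0.0488), without *APOE4* replicate 36 (0.0492), with sex (0.0411) and with 1 surrogate variable (0.0405) as a covariate. The count of other clock genes was 10 of 35 in the reported fit, against 12.8% of all genes. With 1 library left out it ranged from 5 to 13, and was 5 without *APOE3* replicate 30, *APOE3* replicate 33 or *APOE4* replicate 41. The share of all genes in those fits is not given here. The log2 fold change of Clock ran from -0.0162 to 0.0160 and changed sign in 7 of these 16 fits. The number of pairs past the threshold was 0 within the *APOE3* cultures, 0 within the *APOE4* cultures and 0 with the cell cycle score regressed out, where Dbp and Tef had r = 0.56 (permutation p = 0.0408 before adjustment). Each genotype alone has 8 cultures for 45 pairs. The cause of these changes was not tested. Depth limits Ciart most, at 30 to 67 counts.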
